A study of Mus musculus with 4 samples.

Results

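Cd4, Cd8a, Cd8b1, Zbtb7b, Runx1, Runx3 and Gata3 are genes with which developing T cells settle on the CD4 or the CD8 lineage. These 7 genes were chosen by name, not by a measured value, although earlier results of these data were known. The single-cell count table they come from holds 27998 genes. All 7 were found there and all 7 passed the minimum of 50 counted molecules for a comparison, as 10177 genes did. The cells came from the thymus of B6 mice aged 3 weeks and were regulatory T (Treg) cells, a CD4 lineage that holds immune responses in check. All 4 samples carried Rag2-Gfp, a green fluorescent reporter driven by Rag2 sequence that marks recently formed T cells, and Foxp3-Thy1a, which puts Thy1.1 on cells that express the Treg factor Foxp3. The samples were 1 each of IL2 wt/wt, IL2 o/o, IL15 wt/wt and IL15 o/o, and the study set out to measure what IL-2 and IL-15 contribute to Treg cell formation. The sort gate was CD4+CD8-Thy1.1+GFP+, so a cell with CD8 protein on its surface lay outside the gate. The labels do not say how many mice gave a sample. No label ties the 4 barcode suffixes to the 4 samples, so the suffixes are called libraries 1 to 4, they are in no genotype group, and the genotypes were not compared.

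In the thymus, precursors first rearrange their receptor genes with the RAG enzymes (Rag1, Rag2) and terminal transferase (Dntt), and at the double-positive stage carry both the CD4 and the CD8 co-receptor. Cells whose receptor binds MHC class II then keep CD4 and switch on Zbtb7b, whose protein ThPOK shuts off the CD8 genes and Runx3. Cells selected on MHC class I switch on Runx3, which silences Cd4 and Zbtb7b and keeps the CD8 genes open, while Runx1 acts earlier and Gata3 acts ahead of Zbtb7b on the CD4 side. Most thymic Treg cells come from the CD4 branch.

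The co-receptor genes lie on chromosome 6 of GRCm38, Cd4 at 124864692 to 124888221 on the minus strand, Cd8a at 71373427 to 71379173 and Cd8b1 at 71322788 to 71337494, both on the plus strand. Zbtb7b lies on chromosome 3 at 89377644 to 89394776 (minus strand), Runx1 on chromosome 16 at 92601466 to 92826149 (minus), Runx3 on chromosome 4 at 135120652 to 135177990 (plus) and Gata3 on chromosome 2 at 9857078 to 9890034 (minus). All 7 are protein-coding. The counts do not state whether strand was used, and Zbtb7b overlaps the antisense gene Gm15417, which itself had 692 molecules, so reads of this pair may be shared. Genes that overlap the other members had 18 molecules or fewer.

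The promoter windows of 5 of the 7 members were in the RefSeq table (GRCm38.p6, 250 bases before to 50 after the transcription start). The windows shown are those of the members that differed most between cells with and without recombination transcripts, of Runx1 as the sister gene of Runx3, and of Rag1, which defined those cells. For Runx3, Runx1 and Zbtb7b, which had several start sites, only the window that held the motif marked below is shown. The windows shown are therefore not a fair sample of how often the motif occurs. Capitals mark each copy of the RUNX-binding motif TGTGGT on either strand (ACCACA on the other), which 16.7% of all 32544 windows of that length held.
Cd8a (chr6:71373177-71373476, plus strand): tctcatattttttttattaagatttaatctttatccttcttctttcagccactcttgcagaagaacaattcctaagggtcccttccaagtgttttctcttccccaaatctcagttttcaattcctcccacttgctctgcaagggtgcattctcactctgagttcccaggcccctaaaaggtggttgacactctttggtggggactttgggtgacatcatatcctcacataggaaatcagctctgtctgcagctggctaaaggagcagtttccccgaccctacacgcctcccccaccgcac
Runx3, first start site (chr4:135120395-135120694, plus strand): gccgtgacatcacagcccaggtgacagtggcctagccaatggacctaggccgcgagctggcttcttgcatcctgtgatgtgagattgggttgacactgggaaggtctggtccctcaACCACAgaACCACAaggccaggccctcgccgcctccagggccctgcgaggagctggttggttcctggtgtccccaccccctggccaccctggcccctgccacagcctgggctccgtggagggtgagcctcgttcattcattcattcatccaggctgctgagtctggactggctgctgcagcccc
Runx1, first start site (chr16:92826025-92826324, minus strand): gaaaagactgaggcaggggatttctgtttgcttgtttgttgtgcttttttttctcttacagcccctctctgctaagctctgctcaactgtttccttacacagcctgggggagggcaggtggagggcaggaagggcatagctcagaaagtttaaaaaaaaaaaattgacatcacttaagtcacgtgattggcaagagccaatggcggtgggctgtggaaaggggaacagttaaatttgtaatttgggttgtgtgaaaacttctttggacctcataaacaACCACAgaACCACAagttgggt
Zbtb7b, second start site (chr3:89387622-89387921, minus strand): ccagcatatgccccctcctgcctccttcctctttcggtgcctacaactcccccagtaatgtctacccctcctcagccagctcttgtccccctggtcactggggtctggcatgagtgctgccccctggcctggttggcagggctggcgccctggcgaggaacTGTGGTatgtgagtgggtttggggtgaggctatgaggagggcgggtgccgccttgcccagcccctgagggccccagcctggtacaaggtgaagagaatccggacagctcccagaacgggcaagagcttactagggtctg
Rag1 (chr2:101649483-101649782, minus strand): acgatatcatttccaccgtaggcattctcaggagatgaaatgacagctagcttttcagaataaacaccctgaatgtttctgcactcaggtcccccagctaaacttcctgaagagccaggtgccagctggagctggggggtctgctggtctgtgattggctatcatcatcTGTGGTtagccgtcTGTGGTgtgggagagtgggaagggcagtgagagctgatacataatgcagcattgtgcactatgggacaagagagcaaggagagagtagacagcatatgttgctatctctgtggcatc
The first start sites of Runx3 and Runx1 each held 2 copies in the same arrangement, ACCACAgaACCACA. Rag1 held 2 copies and the second Zbtb7b start site held 1, while the windows of Cd8a, Gata3, Dntt, the first Zbtb7b start site and the second start sites of Runx1 and Runx3 held none. The E-box motif CANNTG was in 72.3% of all windows and in all windows named here but the second start site of Runx1, with 3 copies at Cd8a and 4 at Rag1. The GATA motif AGATAA was in 11.2% of all windows and in none of those of the members. A match is a run of letters and not a measured binding site.

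Libraries 1 to 4 held 1609, 2452, 2037 and 2175 cells, with 5717732 to 11274713 unique molecular identifiers (UMIs, 1 per counted molecule) and a median of 2501 to 3857 UMIs per cell. Levels are given as counts per 1000000 UMIs (CPM) with exact Poisson intervals, shares of cells with exact Clopper-Pearson intervals, both at 95% and covering counting error only. With 1 unassigned library per suffix there was no replicate test, and no p-value was computed. Library 3 stood apart in depth, with the lowest median, and in dividing cells: 10 of its 1997 cells without Dntt or Rag1 had 2 or more UMIs of mitotic genes (0.501%), against 8.76% to 14.1% in the other libraries. In all, 27 barcode sequences occurred in more than 1 library (54 cells). Cells were grouped into 9 clusters without the 7 members, Dntt and Rag1. Cluster 9, of 96 cells, was double-positive thymocyte-like by 8 of 9 markers, which is at odds with the CD8- gate. Dntt and Rag1 were among the 9, so the name is not independent of a split by these genes. The 8 genes of that list apart from Dntt, Rag1 and the members summed to 2190 CPM in cluster 9. In clusters 1 to 8 they summed to between 58.3 and 172 CPM. Several results that rest on cluster 9 are given with and without it. Cluster 9 had a median of 2362 UMIs per cell, below the 3143 of all cells.

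Dntt and Rag1 together split the cells into 8135 without a UMI, 62 with 1 and 76 with 2 or more. The 138 cells with at least 1 numbered 24, 34, 40 and 40 in libraries 1 to 4, or 1.67% of all cells. The cells with 2 or more were close to cluster 9, which held 73 of the 76, whereas it held 5 of the 62 cells with 1 UMI and 18 of those with none. Their other transcripts separated them as well. Rag2 was at 0.153, 2.72 and 353 CPM in the cells with 0, 1 and 2 or more UMIs, and Ptcra, the partner chain of the pre-T-cell receptor, at 0.399, 5.45 and 149 CPM. Some Treg and maturity genes ran the other way: Ikzf2, the Treg factor Helios, was at 961, 803 and 149 CPM and Ccr7, a homing receptor of mature thymocytes, at 635, 599 and 32.7 CPM. The 8 genes of mature T cells ready to leave the thymus, Ccr7 among them, fell less, summing to 3941, 3450 and 1834 CPM. Satb1, also of those 8, was 1.81-fold higher in cells with Dntt or Rag1. The 9 genes of IL-2-signalled Treg cells summed to 1402, 1018 and 317 CPM. Foxp3 had 439, 2 and 0 UMIs. That 0 allows up to 13.4 CPM (exact upper limit), about the 13.5 CPM of the cells without Dntt or Rag1, so a difference in Foxp3 was not detectable at this depth. Of the markers of other cells, 4 CD8 single-positive genes summed to 149, 212 and 69.1 CPM. Nkg7 gave 96 of their 97 UMIs in cells with 1 or more. Itgae, Eomes and Crtam were at 0 in the cells with 2 or more UMIs, where 0 again allows up to 13.4 CPM. That is above their 8.01, 1.56 and 0.307 CPM in cells without Dntt or Rag1, so a difference was not detectable. The 5 genes that mark gamma delta T, NKT and NK cells summed to 16.4, 10.9 and 0 CPM, 4 B cell genes (3 at 0 in the last group) to 15.5, 19.1 and 54.6 CPM, and 11 proliferation genes to 732, 1100 and 1717 CPM. Their part in the values of the members was not tested.

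The CD8 co-receptor genes separated the split most. Cd8a, the CD8 alpha chain, was at 225, 358, 602 and 803 CPM in libraries 1 to 4 in cells with a Dntt or Rag1 UMI. In cells without one it was at 5.95, 5.85, 5.40 and 6.10 CPM. The ranges do not overlap, and pooled over libraries with each library kept apart the log2 ratio was 6.41 (6.14 to 6.67), an 85.0-fold higher level. Cd8b1, the CD8 beta chain, was at 271, 552, 771 and 1446 CPM against 18.6, 20.4, 25.5 and 25.02 CPM. Its log2 ratio was 5.08 (4.91 to 5.25), or 33.8-fold higher, again with every library on the same side. Cells with 1 Dntt or Rag1 UMI had a pooled Cd8a level of 46.3 CPM (27.0 to 74.1) and a Cd8b1 level of 76.2 CPM (50.7 to 110.2), against 1095 and 1666 CPM in cells with 2 or more. Most of these UMIs came from libraries 3 and 4. Cd8a had 1, 0, 8 and 8 UMIs in these cells of libraries 1 to 4 and Cd8b1 2, 2, 6 and 18, and the 5 of these cells that were in cluster 9 were in libraries 3 and 4. In libraries 1 and 2 their levels, 7.68 and 0 CPM for Cd8a and 15.4 and 21.2 CPM for Cd8b1, could not be told from those of cells without Dntt or Rag1.

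Cd8 transcripts were concentrated in few cells. Of the 138 cells with Dntt or Rag1, 46 had 3 or more Cd8a UMIs and 61 had 3 or more Cd8b1 UMIs, with up to 19 and 18 in a cell. Of the 8135 without, 3 and 11 did. Outside cluster 9, cells without Dntt or Rag1 had a Cd8a UMI in 2.02% (1.73% to 2.35%) and a Cd8b1 UMI in 7.76% (7.19% to 8.37%), at a median of 3144 UMIs per cell. In cluster 9 cells with Dntt or Rag1 these shares were 79.5% and 83.3%, at a lower median of 2096 UMIs.

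The number of Cd8b1 UMIs for each Cd8a UMI differed between these groups of cells. There were 3.84 Cd8b1 UMIs for each Cd8a UMI in cells outside cluster 9 without Dntt or Rag1 (711 against 185 UMIs), and 1.52 in cluster 9 cells with Dntt or Rag1 (472 against 311). By library, the ratio was 3.13, 3.49, 4.73 and 4.10 in all cells without Dntt or Rag1, and 1.18, 1.51, 1.33 and 1.77 in those with 2 or more UMIs. The ranges do not overlap.

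Cd4 encodes the co-receptor of the CD4 lineage and differed less than the CD8 genes in the same split. It was at 193, 106, 163 and 268 CPM in libraries 1 to 4 in cells with Dntt or Rag1, and at 138, 134, 160.5 and 145 CPM in cells without. Library 2 had the lower level in cells with Dntt or Rag1, and the ranges overlap. The log2 ratio was 0.32 (0.06 to 0.59), below the 1.5-fold threshold. It was 0.08 without library 4, 0.76 in cells thinned to 1811 UMIs and 0.90 when every cell counted alike. For cells with 2 or more Dntt or Rag1 UMIs it was 0.59 (0.23 to 0.96). That is 1.51-fold but was not called, with library 2 lower at 65.8 CPM. The size of this difference was thus not settled.

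Zbtb7b, the ThPOK gene of the CD4 lineage, had few UMIs in cells with Dntt or Rag1, with 2, 2, 4 and 5 in libraries 1 to 4. It was at 12.9, 11.7, 25.1 and 31.8 CPM in libraries 1 to 4 in cells with Dntt or Rag1, against 27.7, 31.5, 42.8 and 35.4 CPM in cells without. It was lower in each library, although the ranges overlap between libraries. The log2 ratio was -0.76 (-1.55 to 0.03) and rested on 13 UMIs, and the interval includes no difference. The value was -2.33 (-4.33 to -0.32) for cells with 2 or more Dntt or Rag1 UMIs, which held 2 Zbtb7b UMIs. In thinned cells it was -0.01, with 2 libraries large enough to compare. Without dividing cells it was -0.61, past the fold, but library 3 then had the higher level in cells with Dntt or Rag1, at 45.1 against 42.7 CPM, so the gene was not called. Dividing cells were 23.9% of the cells with Dntt or Rag1 and 8.67% of those without.

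Runx3, the regulator of the CD8 lineage, was higher in cells with Dntt or Rag1, at 6.44, 23.5, 31.3 and 31.8 CPM in libraries 1 to 4 against 4.91, 4.95, 5.04 and 6.35 CPM. All 4 values of the first group are above all 4 of the second, the lowest, in library 1, resting on 1 UMI. The log2 ratio was 2.14 (1.37 to 2.90), from 15 UMIs in 12 cells. Runx1, its relative that is active in double-positive cells, showed no shared direction. It was at 45.1, 29.4, 94.0 and 19.1 CPM against 37.4, 36.3, 58.5 and 36.0 CPM, higher in 2 of 4 libraries, with a log2 ratio of 0.15 (-0.37 to 0.67) that became -0.23 without library 3.

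Gata3, a zinc-finger factor needed for the CD4 lineage and for early T cells, was lower in cells with Dntt or Rag1 in all 4 libraries. The levels were 90.2, 153, 50.1 and 185 CPM against 158, 187, 162 and 198 CPM, and libraries overlap. The log2 ratio of -0.55 (-0.88 to -0.23) fell short of the 1.5-fold threshold. It passed at -0.67 without library 2 and at -0.77 without library 4, and was -0.21 without dividing cells. For cells with 2 or more Dntt or Rag1 UMIs the ratio was -0.96 (-1.53 to -0.39) from 25 UMIs, and Gata3 was called lower.

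Counted by the rule of 1.5-fold and 1 direction in every library with 20 cells on each side, 3 of 7 members (Cd8a, Cd8b1, Runx3) were higher in cells with Dntt or Rag1, where 7% of the 10177 genes were. Lower was 1 of 7 (Zbtb7b, whose interval includes no difference), against 6.25% of all genes. The plot of levels by number of Dntt and Rag1 UMIs shows the steps for each member.

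**Figure D1:**
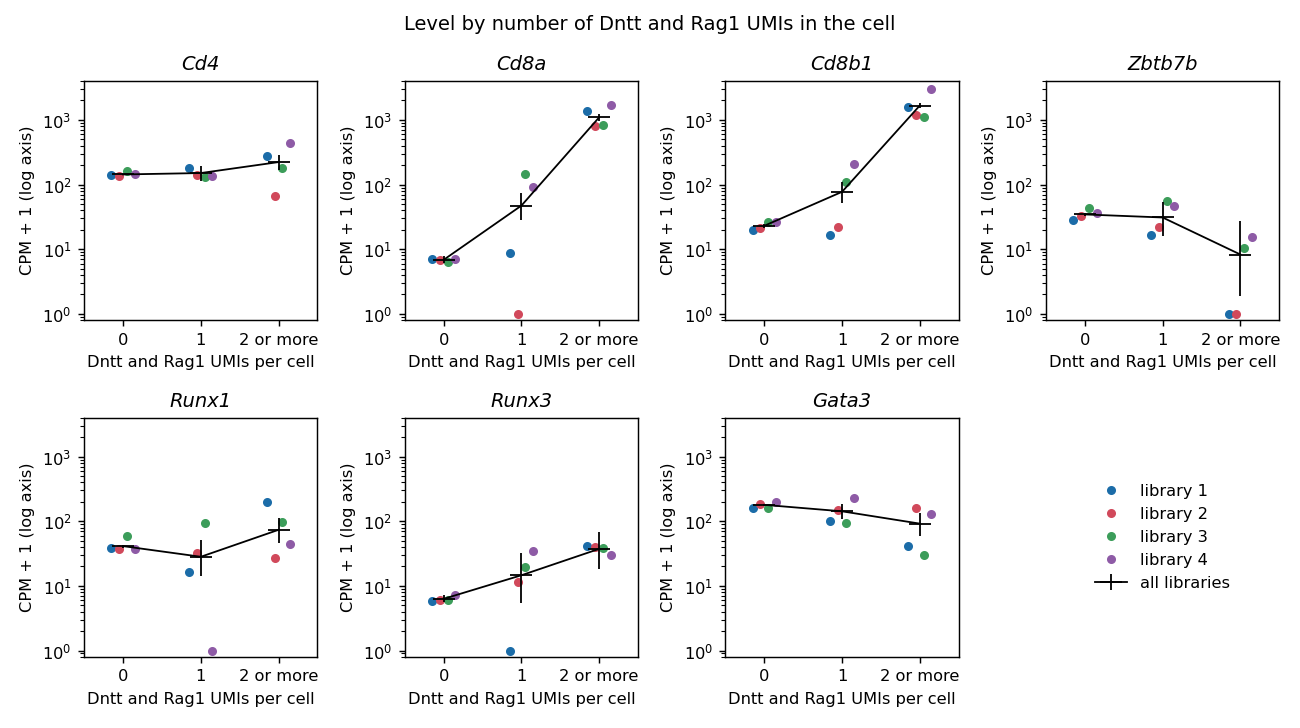
CPM + 1 (log axis) of each member in cells with 0, 1 and 2 or more UMIs over Dntt and Rag1. Coloured points are libraries 1 to 4, and black dashes joined by lines are all libraries with exact 95% Poisson intervals. Cd8a goes from 5.86 to 1095 CPM and Cd8b1 from 22.0 to 1666 CPM, while Zbtb7b and Gata3 are lowest in the cells with 2 or more.

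Cells inside cluster 9 differed in some members, and not in others, by the presence of Dntt or Rag1. The 78 with such a UMI had Zbtb7b at 7.37 CPM (0.892 to 26.6) and Gata3 at 107 CPM (71.5 to 153). The 18 without had Zbtb7b at 99.98 CPM (36.7 to 218) from 6 UMIs and Gata3 at 350 CPM (217 to 535) from 21 UMIs. In the same 18 cells Cd8a was at 99.98 CPM (36.7 to 218), against 1145 CPM (1022 to 1280) in the 78. Intervals do not overlap for any of these 3 genes, nor for Cd8b1, at 117 CPM (46.9 to 240) against 1738 CPM (1585 to 1903). They do overlap for Cd4, Runx1 and Runx3. The 18 cells from 4 libraries are few, and their median depth was higher, at 2968 against 2096 UMIs.

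The 60 cells with a Dntt or Rag1 UMI outside cluster 9 were close to the bulk of the sort in Zbtb7b and Cd4, and less so in the CPM of Cd8a and Gata3. Their Zbtb7b level was 29.7 CPM (14.8 to 53.1) and their Cd4 level 143 CPM (107 to 187), against 33.4 and 142 CPM in other cells outside cluster 9 without such a UMI. Cd8a was at 18.9 CPM (7.59 to 38.9) against 5.69 CPM, from 7 UMIs in 4 cells. Gata3 was at 129 CPM (95.5 to 172) against 178 CPM, and both intervals leave out the level of those other cells. The 60 cells were deeper, with a median of 4643 against 3144 UMIs. Without cluster 9 no library had 20 cells with Dntt or Rag1, so no member could be called, and the log2 ratios became 1.73 for Cd8a, 0.81 for Cd8b1, 1.04 for Runx3, -0.14 for Zbtb7b and -0.43 for Gata3.

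Of 22 further genes of lineage choice, 5 were past the threshold and higher in cells with Dntt or Rag1, beside 7% of all genes. Myb, a factor of early thymocytes, was 3.24-fold higher, the E proteins Tcf12 and Tcf3 were 2.67-fold and 1.66-fold higher, Tcf7 (TCF-1) was 2.49-fold higher and the genome organiser Satb1 was 1.81-fold higher. Another 4 were lower, beside 6.25% of all genes. Bach2, a repressor of effector genes, was 3.78-fold lower, Il7r, the IL-7 receptor chain, 2.46-fold, Tox, needed for the CD4 lineage, 1.94-fold and Id3, an inhibitor of E proteins, 1.56-fold. The median log2 ratio of the list was -0.07, beside 0.10 over all 10177 genes. Cbfb, the partner protein of both RUNX factors, was at 96.5 against 91.9 CPM, a log2 ratio of 0.12 (-0.24 to 0.48). The zinc-finger gene Patz1 was 2.41-fold higher but lower in library 1. Of 6 further genes of the mature CD8 or CD4 programme, 4 had 50 UMIs or more, and 1 of them was called. Nkg7, a granule gene of cytotoxic cells, was at 149 against 139 CPM, a log2 ratio of 0.21 (-0.08 to 0.50). Cd40lg, which encodes the helper ligand CD40L, was at 6.23 against 11.0 CPM, a log2 ratio of -0.90 (-2.32 to 0.52). Eomes, Prf1 and Crtam had 0 UMIs in cells with Dntt or Rag1 and 51, 8 and 10 elsewhere. Their levels elsewhere were 1.56, 0.245 and 0.307 CPM, and 1 UMI in cells with Dntt or Rag1 already makes 1.56 CPM. A difference in these 3 genes was therefore not detectable. Itgae, which encodes the integrin CD103, had 1 against 261 UMIs and a log2 ratio of -2.25 (-5.09 to 0.58), and was the gene called lower, with a single UMI behind its level and an interval that includes no difference.

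The genes with the largest ratios in the split place these values. Those highest in cells with Dntt or Rag1 were Slc7a11, Rag2, Endou, Rapgef3, Ptcra, Dgkeos, Arpp21, Ly6d, Chrna9, Aqp11, Nebl and Gzma. Slc7a11, a cystine transporter gene, had 57 of its 59 UMIs there, and the gene ranked lowest of these, Gzma, a granule protease, had 64 of 130. Those furthest the other way were Dapl1, Kcnip2, Gm19585, Apol9a, Gata1, Penk, Osm, Chd7, Ifit1bl1, Slfn5, Slc36a3os and Heca, each with 1 to 4 UMIs in cells with Dntt or Rag1.

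Across the 9 clusters, 5 members passed the 1.5-fold rule in at least 1 cluster, where 75.9% of all genes did, so the count says nothing particular about the members. Cluster 9 had the highest Cd8a (956 CPM), Cd8b1 (1445 CPM) and Runx3 (36.2 CPM, from 12 UMIs), where 15% of all genes were called higher. By library, Cd8a in cluster 9 was at 807, 661, 841 and 1522 CPM, and Cd8b1 at 946, 986, 1088 and 2696 CPM. In clusters 1 to 8 Cd8a lay between 4.05 and 10.9 CPM and Cd8b1 between 17.2 and 26.3 CPM. Cd8a was called lower in clusters 1, 2, 5, 6 and 7 and Cd8b1 in clusters 2, 4, 5, 6, 7 and 8, with cluster 9 among the cells they were compared with. All cells outside cluster 9 together had Cd8a at 5.84 CPM and Cd8b1 at 22.0 CPM. Clusters 2 and 8, called lower for Cd8b1, were above that, at 24.5 and 24.0 CPM. These calls therefore give no direction among clusters 1 to 8. Of all genes, the share called higher in clusters 1 to 8 was 3.2%, 7.81%, 2.09%, 2.16%, 12.4%, 3.7%, 13.1% and 8.22%. The share called lower in clusters 1 to 9 was 12.8%, 14.7%, 7.94%, 6.8%, 17.9%, 12.4%, 15.7%, 16% and 9.51%. The clusters were made from the same cells, so these are descriptions of the groups.

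Outside cluster 9, Zbtb7b was highest in cluster 2 and lowest in cluster 5, and Gata3 the reverse. This pair was chosen after the values were seen, so its ratios are a description, and Cd4 was highest in cluster 8 and Runx1 in cluster 6. Cluster 5 (847 cells) was TCR and NF-kB-signalled Treg-like, with 11 of 11 markers such as Nr4a3, Irf4 and Egr2, targets of receptor signals, and also had 5 of 9 effector Treg markers. Cluster 2 (1827 cells) took no name, and Tmie, Pde3b, Itgb3 and Pik3ip1 were among its leading genes. Markers of other cells differed between them as well. The 4 CD8 single-positive genes summed to 14.2 CPM in cluster 2 and 451 CPM in cluster 5, none of them at 0. Over all cells, Nkg7 gave 4627 of their 4950 UMIs. Cd8a was at 4.72 and 4.73 CPM in clusters 2 and 5, Cd8b1 at 24.5 and 17.2 CPM and Runx3 at 5.15 and 6.02 CPM. The genes for NK and similar cells summed to 2.79 and 77.2 CPM, with 4 and 3 of the 5 at 0. The 8 genes of mature T cells ready to leave the thymus summed to 5622 and 2214 CPM. Their part in the differences below was not tested. Zbtb7b was at 54.7, 74.2, 47.6 and 56.3 CPM in libraries 1 to 4 in cluster 2, and at 14.5, 18.4, 19.2 and 22.3 CPM in cluster 5. The ranges do not overlap, with a log2 ratio of 1.67 (1.32 to 2.03). Gata3 ran the other way, at 100.4, 128, 126 and 136 CPM in cluster 2 and at 217, 203, 265 and 253 CPM in cluster 5, a log2 ratio of 0.91 (0.76 to 1.07) in favour of cluster 5.

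Cd4 was higher in cluster 2 in every library, at 176, 212, 208 and 188 CPM against 87.6, 99.6, 101 and 122 CPM (log2 ratio 0.93, 0.77 to 1.10). Runx1 was higher there too, at 41.3, 49.5, 63.2 and 36.6 CPM against 25.3, 23.8, 36.6 and 29.4 CPM (log2 ratio 0.74, 0.41 to 1.06), although its libraries overlap. For Runx1 the ratio of cluster 6 to cluster 5 was larger, 1.01 (0.59 to 1.42). Against all other cells rather than against each other, Zbtb7b passed the rule as higher in cluster 2 (background 7.81%), and as lower in cluster 5 (17.9%) and cluster 7 (15.7%). Runx1 passed it as lower in cluster 5. Cd4 and Gata3 did not pass it in any of the 9 clusters, although both did at other cluster settings.

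Ordered by level, Zbtb7b was highest in cluster 2 (56.5 CPM), cluster 6 (52.7) and cluster 8 (45.8), whose intervals overlap, followed by clusters 1 (41.1) and 3 (30.8). It was lowest in clusters 9 (24.1), 4 (24.0), 7 (18.9) and 5 (18.5), whose intervals overlap as well. Cluster 1 was IL-2-signalled Treg-like, cluster 4 effector Treg-like, cluster 6 interferon-response Treg-like and cluster 7 proliferating. Cluster 3 met the rule for erythroid cells, with 3 of 3 markers, but 10398 of its 10471 haemoglobin UMIs came from 1 cell, and it was left without a name, an exception made after its values were seen. Cluster 8 took none either and had the lowest depth, a median of 1588.5 UMIs per cell with 5.57% mitochondrial. Gata3 was highest in cluster 5 (226 CPM, 213 to 240), above clusters 1 (197, 187 to 208) and 3 (192, 178 to 206), and lowest in cluster 2 (124, 114 to 134), with the other clusters between 151 and 175 CPM. Cd4 was highest in clusters 9 (220 CPM), 8 (212) and 2 (198), whose intervals overlap, and lowest in cluster 5 (102). Runx1 went from 61.1 CPM in cluster 6 to 27.1 CPM in cluster 5. Runx3 stayed between 3.97 and 6.79 CPM in clusters 1 to 8, with overlapping intervals.

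**Figure D2:**
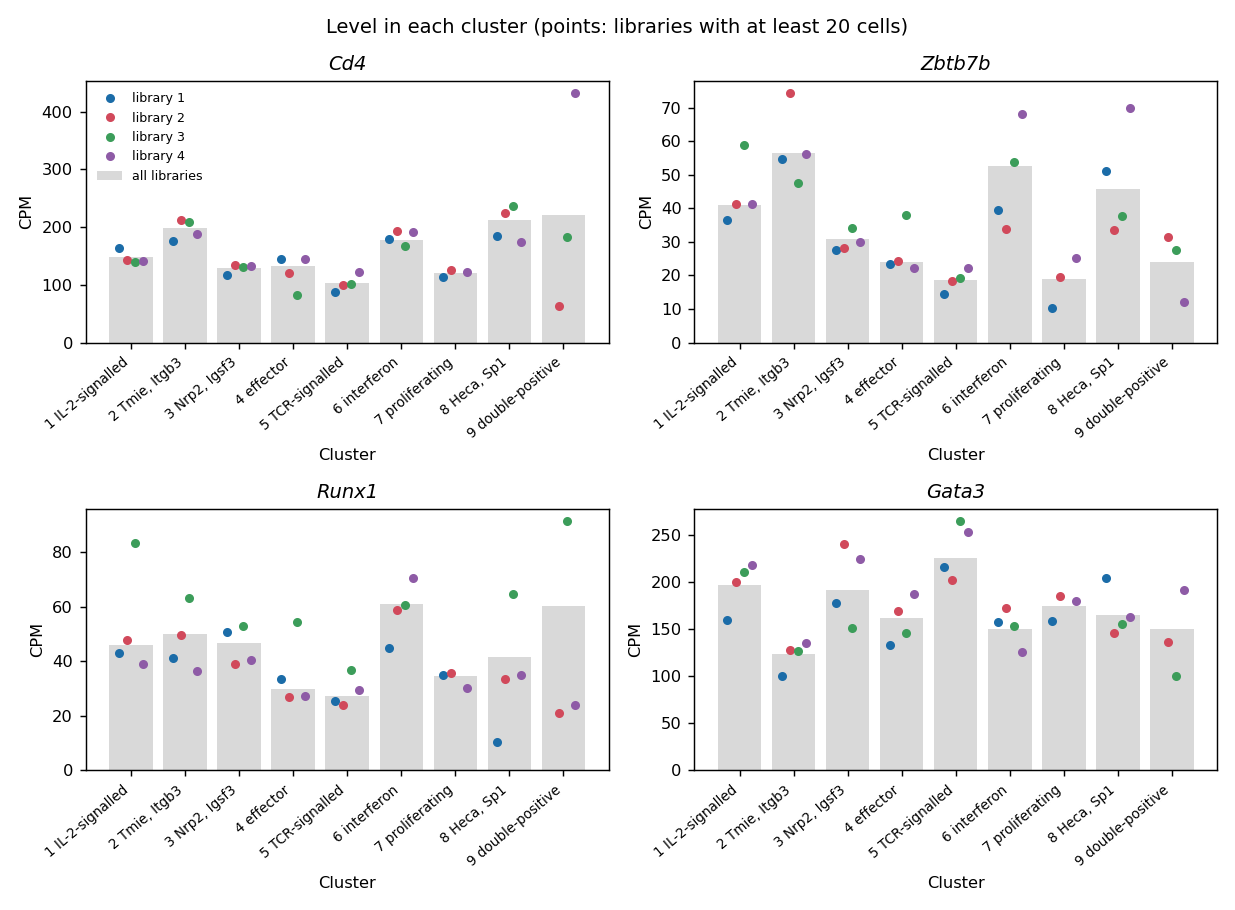
Level in CPM of Cd4, Zbtb7b, Runx1 and Gata3 in each of the 9 clusters. Grey bars are all libraries together and coloured points are libraries with at least 20 cells in the cluster. Zbtb7b is at 56.5 CPM in cluster 2 and 18.5 CPM in cluster 5, and Gata3 at 124 and 226 CPM.

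The clusters also differed in total RNA, and CPM and molecules per cell did not give the same order. The median cell had 2363 UMIs in cluster 2, 4586 in cluster 5 and 9910 in the proliferating cluster 7. In UMIs per cell, Zbtb7b was at 0.144 in cluster 2 and 0.102 in cluster 5, still higher in cluster 2 but by less than in CPM. Gata3 was at 0.316 and 1.24 UMIs per cell, a wider gap than in CPM. Cd4, at 0.506 and 0.562, and Runx1, at 0.128 and 0.149, were not higher in cluster 2 per cell. In cluster 7 the 4 genes had their highest values per cell, 1.25 for Cd4, 0.195 for Zbtb7b, 0.358 for Runx1 and 1.81 for Gata3. At 1811 UMIs per cell, Zbtb7b was found in 8.80% of cluster 2 cells and 3.93% of cluster 5 cells, and Gata3 in 18.2% and 32.2%. The part of total RNA in the differences of CPM was not tested beyond these values.

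**Figure D3:**
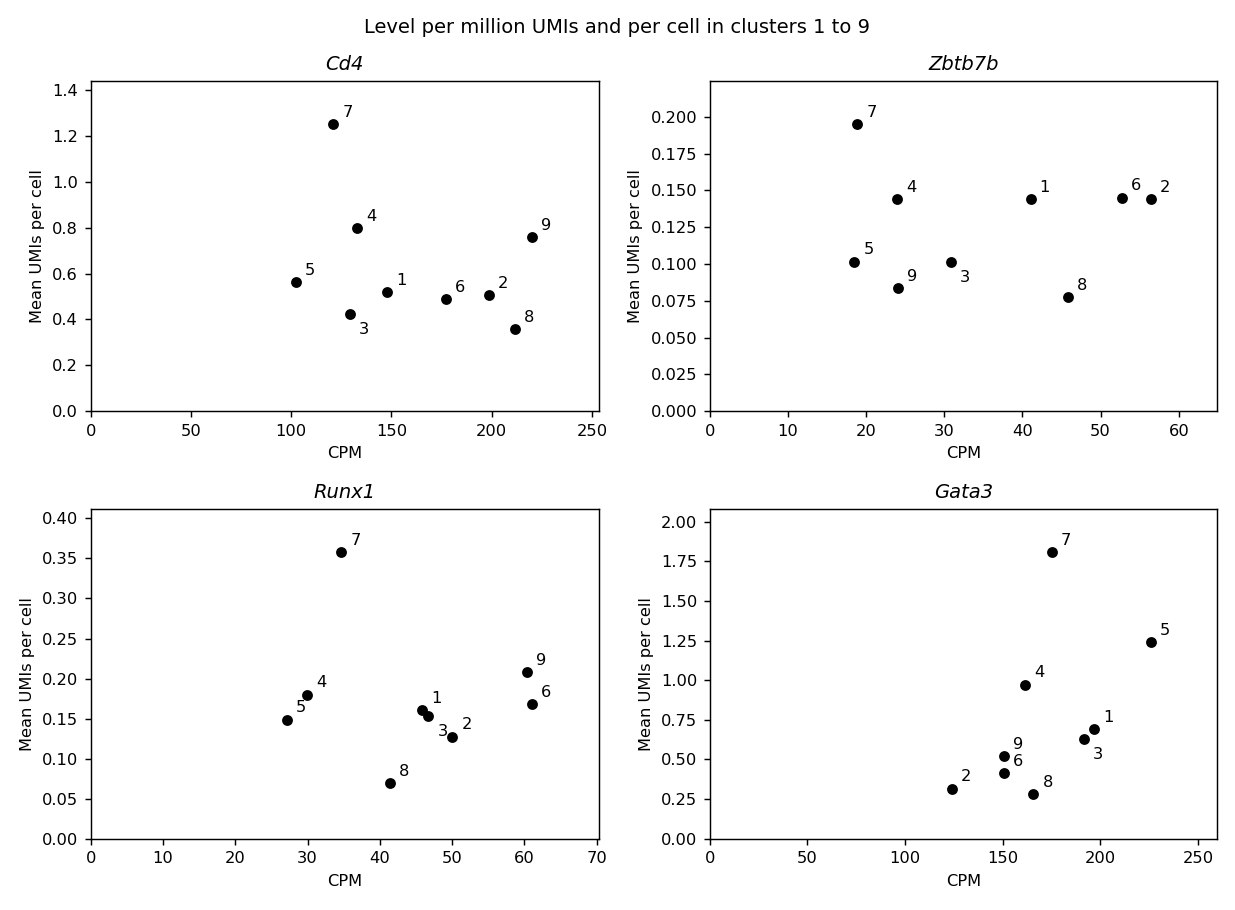
Mean UMIs per cell against CPM for Cd4, Zbtb7b, Runx1 and Gata3, 1 point per cluster, numbered 1 to 9. Cluster 7 is highest per cell for all 4 genes without being highest in CPM, and Gata3 is higher in cluster 5 than in cluster 2 on both axes.

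Over the 9 clusters, the genes whose log2(CPM + 1) was most like a member, of 8055 genes with at least 200 UMIs, were ranked by Pearson r as a description. These values share libraries and depth. For Cd8a they were Ptov1 (0.995), Dntt (0.987) and Rmnd5a (0.977), and for Cd8b1 Dntt (0.992), Aqp11 (0.984) and Desi1 (0.979). For Zbtb7b they were Gm20696 (0.998), Dusp11 (0.987) and Trim12a (0.982), for Cd4 Sh3kbp1, Synrg and Natd1 (each 0.98), for Runx1 Zfp646 (0.989), Zfp212 (0.974) and Cant1 (0.963), and for Gata3 Timm10 (0.890), Ehd1 (0.882) and Gorasp2 (0.878). Over the 8 clusters without cluster 9, r was 0.91 between Zbtb7b and Cd4, 0.86 between Zbtb7b and Runx1, and -0.75 between Gata3 and Cd4. Between Cd8a and Cd8b1 r was 0.98 over 9 clusters and 0.08 over those 8. Over the 8, the genes most like Cd8a were Ptov1 (0.962), Gm10076 (0.913) and Rfx5 (0.909). Those most like Cd8b1 were Mon1a (0.944), Lig4 (0.923) and Galt (0.917), and Dntt was in neither group. Tnfrsf4, the gene of the co-stimulatory receptor OX40, was then the gene most like Gata3 (r = 0.92).

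Detection of members in the same cell was read in the 7447 cells deep enough to be thinned to 1811 UMIs. Cd8b1 was found in 37 of 103 cells with a Cd8a UMI (35.9%, 26.7% to 46.0%) and in 4.14% of cells without one. Among cells outside cluster 9 without Dntt or Rag1, it was found in 3 of 66 with Cd8a (4.55%, 0.947% to 12.7%) and in 4.05% without, so the pairing of the chains was not detectable there. In the same cells Zbtb7b was found in 7.40% (6.20% to 8.74%) of those with a Cd4 UMI and 5.87% of those without. For Runx1 the shares were 8.62% (7.33% to 10.05%) and 7.01%, and for Gata3 23.5% (21.5% to 25.6%) and 26.4%. The intervals of the cells with and without Cd4 overlap for each of these 3 genes. No cell type in the sort should lack Cd4, so no background share can be given for it. For Zbtb7b, 1 of the 51 cluster 9 cells with Dntt or Rag1 that were thinned had a UMI (exact interval 0.0496% to 10.4%), which is too few cells to tell its share from those above.

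Between libraries, 4 of 7 members differed at least 1.5-fold from the lowest to the highest, as 36.7% of all genes did. Cd8a was at 10.3, 11.2, 22.0 and 21.1 CPM and Cd8b1 at 23.6, 28.5, 46.3 and 51.7 CPM in libraries 1 to 4, with libraries 3 and 4 above the other pair. In cells without Dntt or Rag1 the ratio of the highest to the lowest library went from 2.15 to 1.13 for Cd8a and from 2.19 to 1.37 for Cd8b1. Most of the Cd8a difference between libraries was thus in the cells with Dntt or Rag1.

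Runx1 was at 37.5, 36.2, 59.5 and 35.7 CPM, with library 3 above the others. The ratio was 1.67 in all cells and 1.62 without Dntt or Rag1 cells, where 2 of 7 members (Zbtb7b, Runx1) remained past the fold beside 37% of genes. Library 3 was the highest for Runx1 in 7 of the 8 clusters in which it had 20 cells. In thinned cells the share with a Runx1 UMI was 6.36%, 6.39%, 10.4% and 7.02%. Per cell the order was another, at 0.184, 0.166, 0.167 and 0.137 UMIs, and library 3 was the shallowest. Zbtb7b was at 27.4, 31.2, 42.3 and 35.3 CPM, a ratio of 1.55, but the thinned shares of 5.91%, 6.26%, 6.66% and 6.15% were close and its ratio in thinned cells was 1.17.

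Cd4 was at 139, 134, 161 and 148 CPM, Runx3 at 4.94, 5.23, 5.77 and 6.83 CPM and Gata3 at 157, 186, 158 and 198 CPM, each within 1.5-fold. Cd4 had a UMI in 45.7%, 42.4%, 34.4% and 40.1% of cells, the order of depth and not that of CPM. At 1811 UMIs per cell those shares became 23.6%, 22.7%, 24.8% and 23.4%. The sources used here do not give the genotype of a library, so none of these differences can be read as an effect of IL-2 or IL-15.

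**Figure D4:**
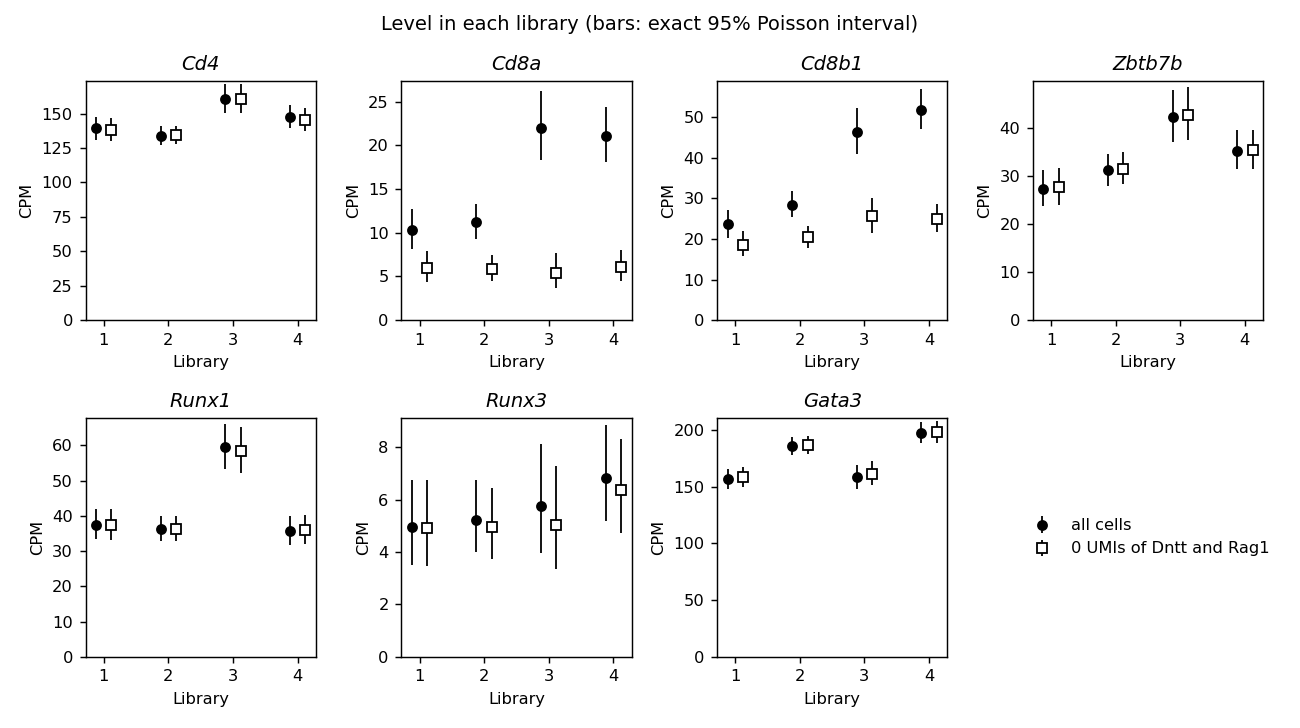
Level in CPM of each member in libraries 1 to 4, in all cells (filled circles) and in cells without Dntt or Rag1 UMIs (open squares), with exact 95% Poisson intervals. Cd8a falls to between 5.40 and 6.10 CPM in every library without those cells, while Runx1 stays highest in library 3.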

How the data were processed

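Droplet 3' libraries (Chromium v2) of sorted thymic Treg cells were deposited as UMI counts for 27998 genes in 8273 cells. Builds and tools named in the submitters' processing notes are mm10, R 3.4.1, Cell Ranger 2.0.2 and CASAVA 2.20, with no roles given. A deposited table of log2 values (9571 genes, 7231 cells) was checked against the counts: within a cell, 1 factor scales all counts before 1 is added and log2 taken. It served only to name a subset of cells. Cell filters and strand settings are not given in the sources used here. Symbols came from GENCODE for 27645 identifiers, and 353 had none.

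Levels are sums of UMIs per total UMIs. Ratios are Mantel-Haenszel ratios over the 4 libraries with approximate 95% counting intervals, and a sum of 0 is set at 3 UMIs. A gene was called at 50 UMIs, 1.5-fold and 1 direction in every library with 20 cells on each side. Named were all members, list genes past the fold, the 12 largest ratios each way and the 3 genes most like a member with 500 UMIs. Members and lists were chosen with earlier results of these data known. Clusters used scanpy 1.11.5 with 2000 variable genes, 30 components, 15 neighbours and Leiden resolution 0.6 (leidenalg 0.10.2, igraph 0.11.9). Receptor, sex-linked, ribosomal, mitochondrial and cell cycle genes were left out. A cluster was named from 3 or more markers, at least 50% of those measured, with 1 or more among its 10 leading genes, except cluster 3, whose erythroid signal came from 1 cell. No doublet caller was run and no doublet removed. Thinning drew 1811 UMIs per cell, leaving out 826 shallower cells (52, 135, 415 and 224 in libraries 1 to 4). The ratio was tested on simulated data. Other tools were matplotlib 3.10.9, pandas 2.3.3, scipy 1.17.1, numpy 2.4.6 and Python 3.11.15. Alternatives covered scaling, cell filters, depth, class rule, weighting, clustering and leaving out each library.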

Additional observations from a re-analysis of the deposited data

How the results depend on the processing

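The 3 members higher in cells with Dntt or Rag1 (Cd8a, Cd8b1, Runx3) were called under all 14 alternatives that could make a call, and Cd4 joined them in thinned cells and with Rag1 alone, where 2 libraries and 1 library had enough cells to compare. The number lower was 1 (Zbtb7b) and became 2, with Gata3, under median-of-ratios scaling, totals without mitochondrial and ribosomal protein genes, 2 or more UMIs against 0, Dntt alone and Rag1 alone. It was 0 without cells with 2 or more G2 and M phase UMIs, and 1 to 2 when each library was left out in turn (2 without library 2 or library 4). In thinned cells the 1 member called lower was Gata3. The causes were not tested. Without the double-positive thymocyte-like cluster no library had 20 cells on each side. Members past the fold between clusters numbered 5 and ranged from 5 to 6. Without library 3 the highest over the lowest cluster was 403 for Cd8a and 147 for Cd8b1, against 236 and 84.0 with it, and for Zbtb7b it was 7.88 at resolution 0.4 against 3.05. Members differing between libraries numbered 4, and 2 without cells that hold a Dntt or Rag1 UMI or without the double-positive thymocyte-like cluster. The ranking of genes most like a member without cluster 9 was chosen after seeing the data. No result changed sign among those called. Depth limits Zbtb7b and Runx3 most, with 13 and 15 UMIs in cells with Dntt or Rag1. No paired analysis was possible because no suffix could be matched to a labelled sample.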
